A study of Mus musculus with 12 samples.

Results

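The expressed zinc finger protein (Zfp) genes of adult mouse cardiac fibroblasts were described across 4 groups of cells. Members were the protein-coding genes whose symbol is Zfp followed by 3 digits and whose transcripts summed to a mean of 5 or more TPM (transcript abundance per length, scaled to a common library total) in the 3 control libraries (vehicle with scrambled siRNA). The rule took 212 of 314 such genes, out of 35523 genes with a matched transcript. The level in the control libraries chose the members, so it is given only as a description: the median was 13.4 TPM, with quartiles of 8.66 and 23.1 TPM, and 74 members lay under 10 TPM. Just inside the threshold were Zfp583 at 5.10 TPM and Zfp213 at 5.12 TPM, and just outside it were Zfp956 at 4.99 TPM and Zfp976 at 4.82 TPM.

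Fibroblasts were isolated from hearts of wild-type C57BL/6J mice of both sexes and transfected with a small interfering RNA (siRNA) against histone H1.0 or with a scrambled control (siScramble). All cells were kept in medium with almost no serum for 24 h, and cells of each transfection then received TGF-β at 10 ng/ml, the cytokine that drives fibroblast activation, or vehicle. The groups were TGF-β with H1.0 siRNA, TGF-β with siScramble, vehicle with H1.0 siRNA and vehicle with siScramble, with 3 libraries each, 12 in all. H1.0 is a linker histone, which binds the nucleosome where DNA enters and leaves and compacts chromatin.

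C2H2 zinc finger proteins form the largest family of mammalian transcription factors. Each finger is a short loop held by a zinc ion between a pair of cysteines and a pair of histidines, and arrays of fingers read DNA sequence. Many of these proteins also carry a KRAB domain, which recruits TRIM28 and through it the methyltransferase SETDB1 and heterochromatin protein 1, so that the bound site is silenced; endogenous retroviruses are frequent targets. KRAB zinc finger genes arose by tandem duplication and lie in clusters, whereas other members act in transcriptional activation, RNA metabolism or mitosis.

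Library totals were 36.2 to 36.3 M reads in TGF-β H1.0 siRNA cells, 19.9 to 24.3 M in TGF-β siScramble cells, 21.4 to 35.5 M in vehicle H1.0 siRNA cells and 21.2 to 24.4 M in vehicle siScramble cells. H1f0, the gene of H1.0, had 510.3 to 876.3 normalized counts in TGF-β H1.0 siRNA cells against 2807 to 2922 in TGF-β siScramble cells, and 600.5 to 1075 in vehicle H1.0 siRNA cells against 2515 to 3033 in vehicle siScramble cells. A normalized count is the estimated read count scaled for library size and composition to the mean library total. The 11 fibroblast markers summed to 17300 to 19400 TPM in TGF-β H1.0 siRNA cells against 16900 to 18200 TPM in TGF-β siScramble cells and 20700 to 21200 TPM in vehicle H1.0 siRNA cells. The 10 macrophage markers summed to 614 to 929 TPM in TGF-β H1.0 siRNA cells against 1050 to 1100 TPM in TGF-β siScramble cells and 1140 to 1240 TPM in vehicle H1.0 siRNA cells, with no marker at 0 reads in all libraries of a group. Of that sum Lyz2 alone made 358 to 564, 698 to 723 and 689 to 737 TPM in these groups, in that order. The other macrophage markers together made 257 to 364, 356 to 382 and 446 to 502 TPM. The 5 mural cell markers summed to 4.73 to 13.7 TPM in TGF-β H1.0 siRNA cells against 19.4 to 49.3 TPM in TGF-β siScramble cells and 9.98 to 19.0 TPM in vehicle H1.0 siRNA cells. The 8 cardiomyocyte markers summed to 14.6 to 17.2 TPM in TGF-β H1.0 siRNA cells against 132 to 164 TPM in TGF-β siScramble cells and 21.5 to 24.4 TPM in vehicle H1.0 siRNA cells. Of that sum Tnnt2 alone made 9.66 to 11.4 TPM in TGF-β H1.0 siRNA cells against 128 to 158 TPM in TGF-β siScramble cells, and the other markers together 4.24 to 5.78 TPM against 4.59 to 6.40 TPM. The 8 endothelial markers summed to 35.9 to 44.9 TPM in TGF-β H1.0 siRNA cells against 45.1 to 54.0 TPM in TGF-β siScramble cells. In vehicle H1.0 siRNA cells they summed to 45.3 to 56.3 TPM. Vehicle siScramble cells had sums of 17600 to 18800 (fibroblast), 1430 to 1580 (macrophage), 48.5 to 78.9 (endothelial), 22.0 to 54.3 (mural) and 177 to 197 TPM (cardiomyocyte). The part of these shifts in the results was not tested, and in bulk libraries fewer cells of a type cannot be told apart from less RNA per cell.

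The members spread over the genome unevenly. Chromosome 7 held 45 members (21.23%, against 7.37% of the 10668 protein-coding genes that passed the same TPM rule), and chromosome 17 held 28 (13.21%, against 4.97%). In all, 133 members lay in 33 runs of neighbours whose starts were within 1 Mb of each other. The longest run had 15 members on chromosome 17 (GRCm38, 21008903 to 23564238), the next 9 members on chromosome 7 (127233061 to 127885996) and the third 8 members on chromosome 17 (32765496 to 33631779).

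The encoded proteins had a median of 10 C2H2 motifs and at most 36 (Zfp142), and 206 of 212 had 1 or more. A stretch of letters typical of a KRAB box (DV, 3 residues, F, 2 to 4 residues, EW) was found in the first 250 residues of 90 members and not in the other 122, which may include KRAB genes that the letters miss. Duplicated genes share sequence, and reads from shared stretches may be divided between copies. The median member shared 1.21% of its 31-base words with transcripts of another gene, 43 members shared 10% or more, and 12 shared over 50%.

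The first comparison asked how loss of H1.0 altered the members in cells under TGF-β, and none of the 6 libraries it compares chose them. The spread and scaling came from 1 fit of all 12 libraries, which include those that chose the members; in a fit of the 6 libraries alone 18 members were called higher and 13 lower. In H1.0 siRNA cells 25 members were called higher and 21 lower than in siScramble cells (edgeR quasi-likelihood test over all genes tested, Benjamini-Hochberg adjusted p under 0.01). Thus 46 of 212 (21.7%) were called, beside 24.3% of the 18028 genes tested (13% higher, 11.3% lower) and 34.9% of protein-coding genes by the same TPM rule (19.7% higher, 15.3% lower). The members' median log2 fold change was 0.11, beside 0.06 for those protein-coding genes and 0.04 for all genes tested. With a transcript-length offset these medians were 0.0552, 0.0326 and 0.00649, and with DESeq2 0.0740, 0.0221 and 0.00104. The members moved by small amounts: the median absolute log2 fold change was 0.23 beside 0.29 in the protein-coding genes, and 2 members reached a 2-fold difference (0.943%, beside 8.55%). The higher calls outnumbered the lower ones in the fit used here, but not with DESeq2 (27 higher, 31 lower), with its size factors (22 and 25) with a transcript-length offset (10 and 12) or with the filterByExpr count filter (25 and 25). In the fit blocked on replicate number, 35 members were called higher and 33 lower. The shares of all genes and of protein-coding genes, here and below, come from the fit used here. Counts from the other fits therefore have no share beside them. Without TGF-β siScramble replicate 1 the counts were 15 higher and 11 lower, and without TGF-β H1.0 siRNA replicate 2 they were 16 and 13. The lower calls were 12 without TGF-β siScramble replicate 3 and 10 without TGF-β H1.0 siRNA replicate 1. In every fit without 1 library, 21 of the 46 kept their call.

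**Figure D1:**
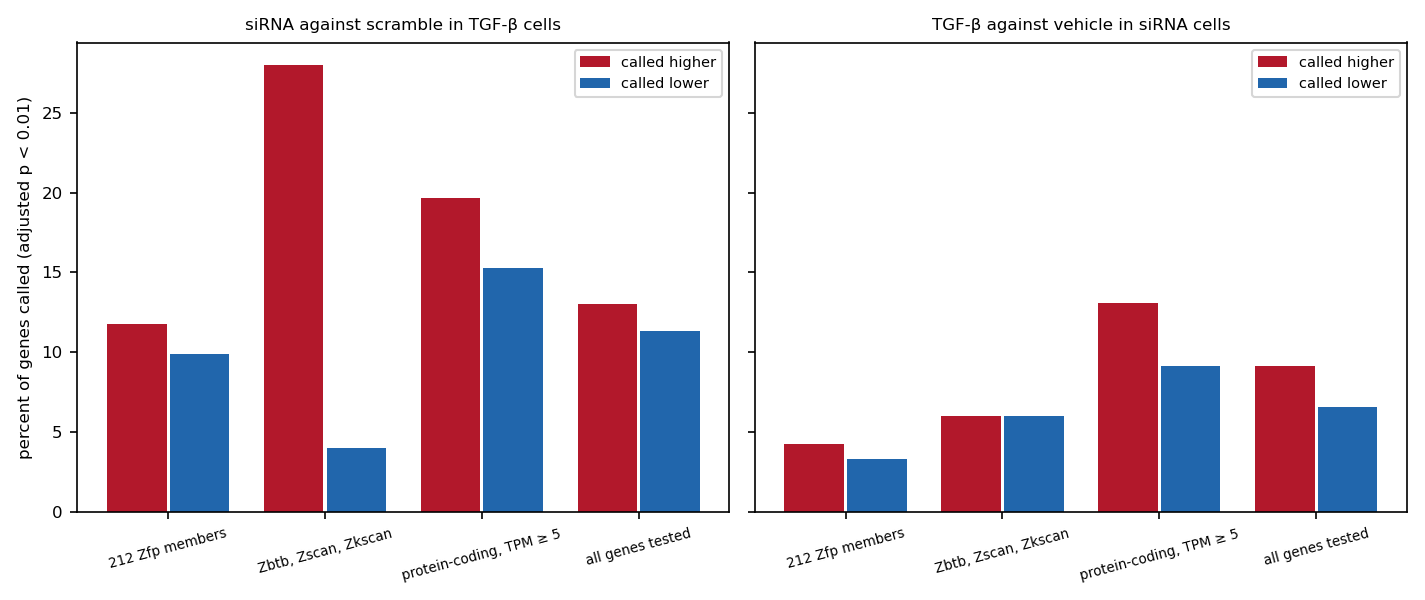
Percent of genes called higher (red) or lower (blue) at adjusted p under 0.01 in each tested comparison, for the 212 members, 50 Zbtb, Zscan and Zkscan genes chosen by the same TPM rule, the protein-coding genes by that rule, and all genes tested. The members' bars stand below those of the protein-coding genes in both directions and both comparisons.

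Zfp827 had the widest fall. ZNF827, its human counterpart, recruits the NuRD chromatin remodeller to telomeres. Its normalized counts were 250.6, 263.8 and 471.5 in TGF-β H1.0 siRNA cells against 812.6, 832.8 and 1001 in TGF-β siScramble cells, a log2 fold change of -1.43 ± 0.27 (SE, adjusted p = 0.00166). The groups did not overlap, and TGF-β H1.0 siRNA replicate 3 was the highest of its group.

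Zfp365 had 827.9, 786.8 and 508 normalized counts in TGF-β H1.0 siRNA cells against 1511, 1482 and 1389 in TGF-β siScramble cells (log2 fold change -1.05 ± 0.18, adjusted p = 0.00085). In its protein 0 C2H2 motifs were found. Zfp362 had 342.9, 402.6 and 389.9 against 737.3, 711.5 and 671.9 in the same groups (-0.90 ± 0.11, adjusted p = 7.65e-05). For both genes every siRNA library lay below every siScramble library. Zfp608 fell by 0.99 ± 0.11 on the log2 scale, with means of 624.6 ± 42.3 and 1243 ± 68.7 normalized counts in TGF-β H1.0 siRNA and TGF-β siScramble cells (SD, n = 3 each; edgeR adjusted p = 4.1e-05).

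Zfp148, a factor that binds GC-rich promoters, had 2095, 2114 and 2225 normalized counts in TGF-β H1.0 siRNA cells against 3202, 3309 and 3466 in TGF-β siScramble cells (-0.63 ± 0.06, adjusted p = 1.39e-05). The most abundant member, Zfp706 (167 TPM in the control libraries), fell by 0.61 ± 0.10 (adjusted p = 0.000526), with 2050, 2002 and 1701 normalized counts in TGF-β H1.0 siRNA cells against 3216, 2977 and 2595 in TGF-β siScramble cells. Zfp367 fell by 0.81 ± 0.13 (adjusted p = 0.000669). Its 3 siRNA libraries, at 453.1, 452.8 and 509.5, lay below the 766.7, 780.5 and 937.4 of the siScramble libraries. Zfp292 (-0.64 ± 0.14) and Zfp213 (-0.65 ± 0.16) completed the 8 widest falls, but both lost the call in some fits without 1 library. Zfp292 lost it without TGF-β siScramble replicate 1 or 2 or TGF-β H1.0 siRNA replicate 1 or 3 (adjusted p of up to 0.0226). Zfp213 lost it in 6 of 12 such fits, at up to 0.0347.

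Among the members called higher, Zfp617 had the smallest adjusted p, with 853.5, 775.2 and 876.9 normalized counts in TGF-β H1.0 siRNA cells against 498.6, 548.8 and 495.9 in TGF-β siScramble cells (0.70 ± 0.07, adjusted p = 1.92e-05). It shared 47.7% of its words with other transcripts, so its count is uncertain. Zfp316 had 509, 581.6 and 502.5 against 339.8, 354.4 and 301.9 in the same groups (0.68 ± 0.10, adjusted p = 0.000239), and Zfp113 had 460.9, 490.6 and 446.6 against 282.2, 335.1 and 321.2 (0.58 ± 0.09, adjusted p = 0.000324). Neither shared more than 4.75% of its words, and in neither gene did the groups overlap.

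Zfp143, an activator of many promoters including those of small nuclear RNA genes, had 647.9, 604 and 612.1 normalized counts in TGF-β H1.0 siRNA cells against 389.2, 439.9 and 427.9 in TGF-β siScramble cells (0.57 ± 0.12, adjusted p = 0.00301). The call was lost without TGF-β siScramble replicate 1 (adjusted p = 0.0155) or TGF-β H1.0 siRNA replicate 1. Zfp236, with 30 C2H2 motifs, was higher by 0.57 ± 0.08 (adjusted p = 0.000308), and its siRNA libraries lay within 1516 to 1530 normalized counts, above the 955.6 to 1125 of the siScramble libraries. The widest fitted rises, Zfp971 (0.76 ± 0.16, adjusted p = 0.00332) and Zfp524 (0.74 ± 0.17, adjusted p = 0.00582), rested on genes that shared 69.5% and 45.8% of their words. Zfp971 lost the call without TGF-β siScramble replicate 1 or 2 or TGF-β H1.0 siRNA replicate 2 or 3 (up to 0.017). Zfp524 lost it without TGF-β siScramble replicate 2 or 3 or TGF-β H1.0 siRNA replicate 1 or 2 (up to 0.0262), and so did Zfp449 (0.57 ± 0.12, up to 0.0147).

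**Figure D2:**
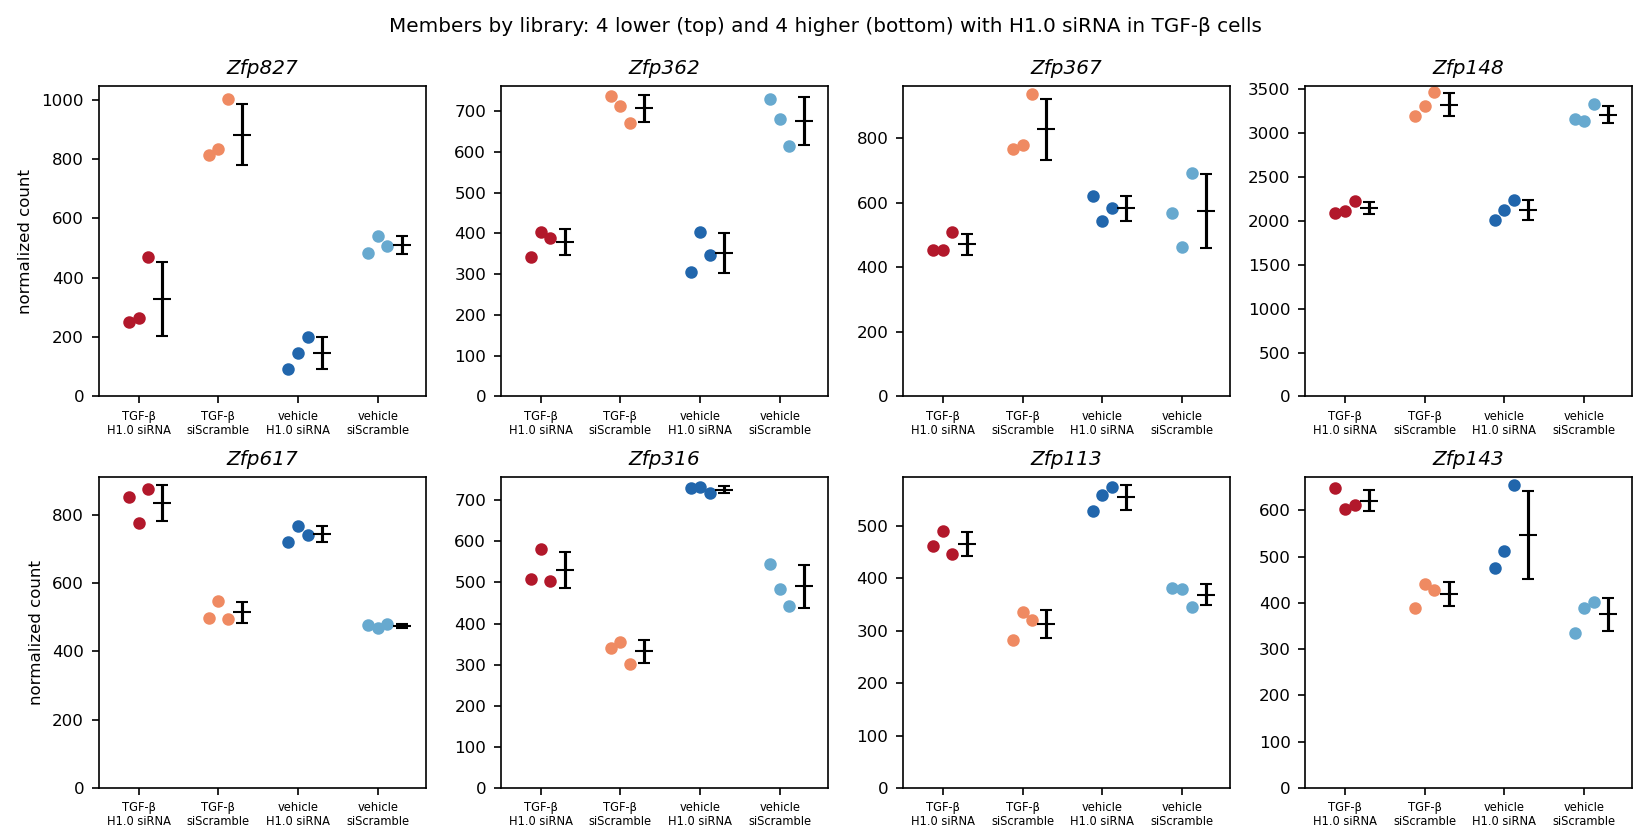
Normalized counts (y axis, from 0) of 4 members called lower and 4 called higher with H1.0 siRNA in TGF-β cells. Each point is a library, and the black bar beside it is the mean with its SD over 3 libraries. In each panel the TGF-β H1.0 siRNA points do not overlap the TGF-β siScramble points, and Zfp827 falls to 328.6 ± 124 against 882.1 ± 103.

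The same members could be read in vehicle cells, whose 6 libraries are on neither side of the first comparison, although they entered the fit that made its calls. The comparison in vehicle cells holds the control libraries that chose the members, so it was not tested. All 25 members called higher with siRNA under TGF-β were also above 0 in vehicle cells (median log2 fold change 0.39), and 20 of the 21 called lower were below 0 (median -0.43). The exception was Zfp367, at 0.02 ± 0.13 in vehicle cells. Among protein-coding genes by the same TPM rule the shares were 98.1% and 98.3%. Over all members the median was 0.02 in vehicle cells, beside 0.05 in the protein-coding genes by that rule. Zfp827 was at -1.79 ± 0.28, Zfp362 at -0.94 ± 0.11 and Zfp617 at 0.65 ± 0.07 in vehicle cells. The contrast between the siRNA responses in TGF-β and vehicle cells also holds the control libraries that chose the members. No conclusion is drawn from it on whether the responses differ. In it 0 members were called (edgeR quasi-likelihood test, adjusted p under 0.01). At an unadjusted p under 0.05 in that test there were 11 members, a threshold that some members pass without any difference. No share of all genes is given beside either count.

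**Figure D3:**
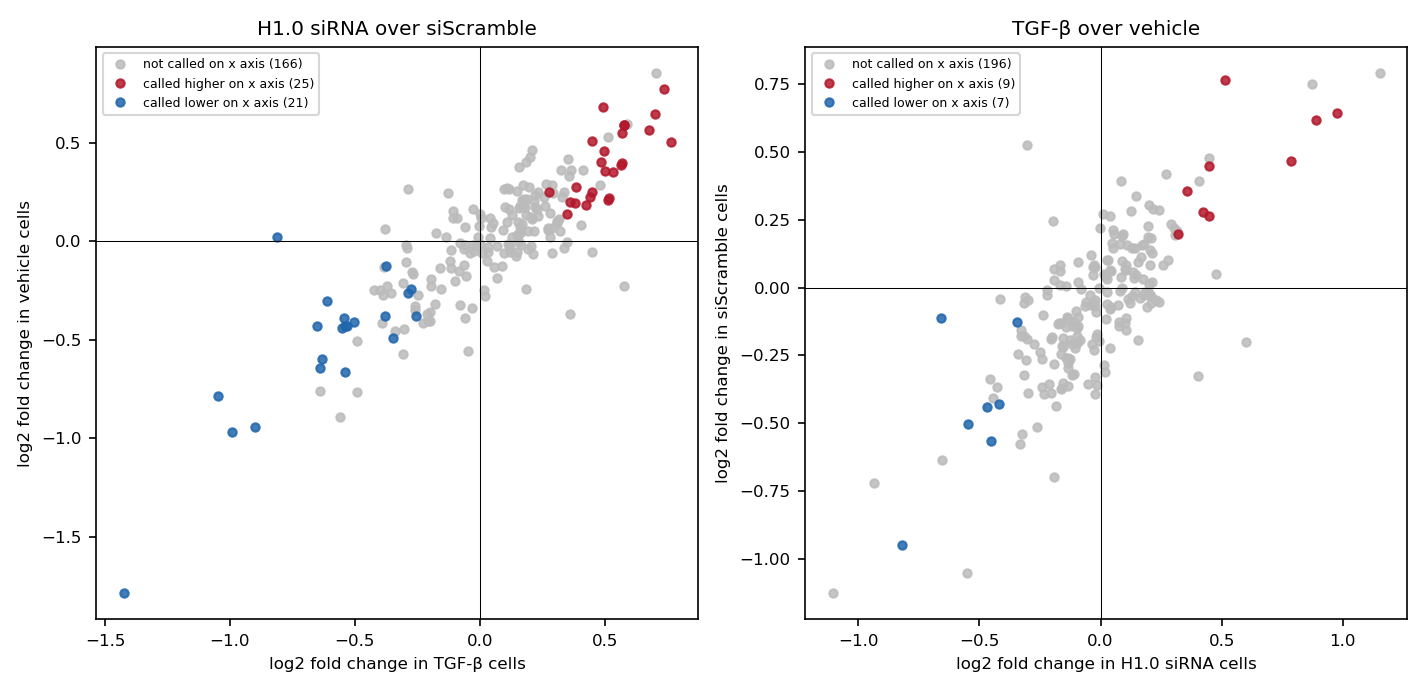
Log2 fold changes of the 212 members. Left, H1.0 siRNA over siScramble in TGF-β cells (x axis) and in vehicle cells (y axis); right, TGF-β over vehicle in H1.0 siRNA cells (x axis) and in siScramble cells (y axis). Colours give the call on the x axis: 25 higher and 21 lower on the left, 9 higher and 7 lower on the right.

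Of the 90 members with the KRAB letters, 14 were called higher and 3 lower (median log2 fold change 0.12), against 11 higher and 18 lower of the 122 without the letters (median 0.06). These are 18.9% and 23.8% of each class, beside 24.3% of all genes tested and 34.9% of protein-coding genes by the same TPM rule, and the difference between the classes was not tested. The 3 lower ones were Zfp595, Zfp760 and Zfp248, named after their values were seen. Without TGF-β siScramble replicate 1 the counts were 8 and 0 with the letters and 7 and 11 without them. Over all fits without 1 library they were 8 to 15 higher and 0 to 4 lower with the letters, and 6 to 13 higher and 9 to 19 lower without them; with the transcript-length offset they were 5 and 1 against 5 and 11. With the replicate block 19 and 8 were called with the letters and 16 and 25 without. Of the 43 members that shared 10% or more of their words, 5 were called higher and 0 lower (11.6%), with a median of 0.22 and 33 of 43 above 0. Of the 169 that shared less, 20 were higher and 21 lower (24.3%), with a median of 0.06.

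**Figure D4:**
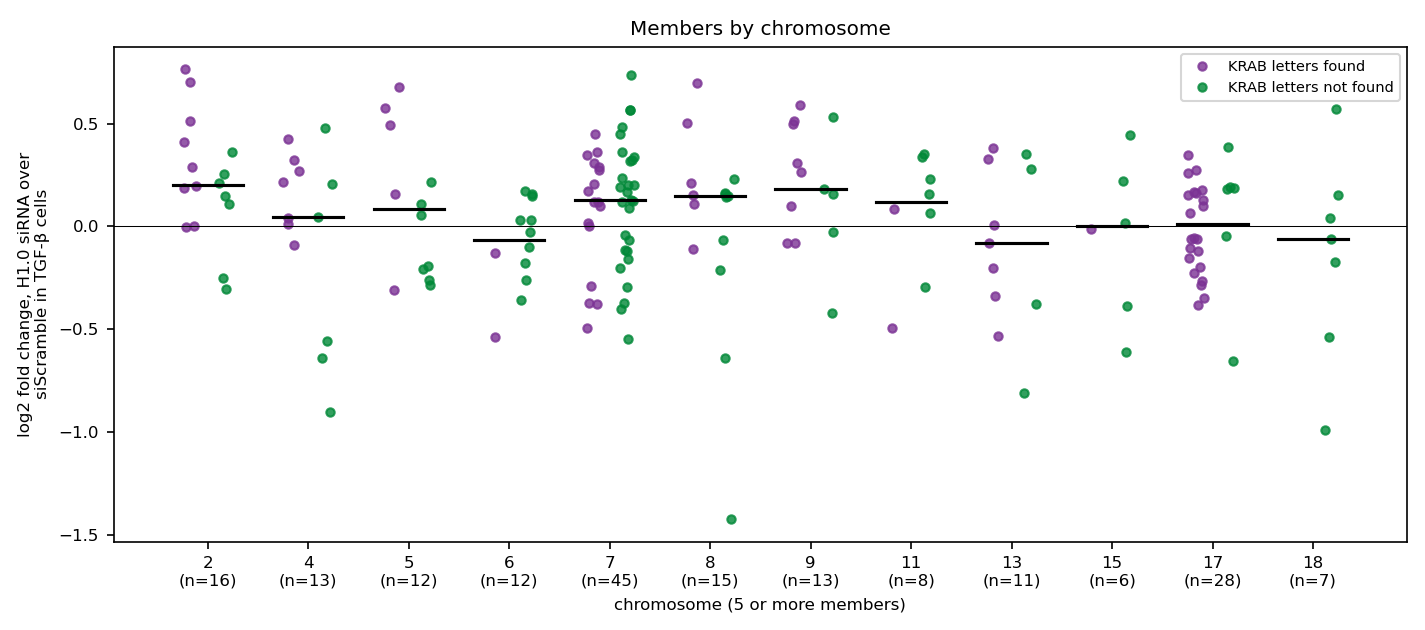
Log2 fold change of H1.0 siRNA over siScramble in TGF-β cells for each member (y axis), by chromosome with 5 or more members (x axis). Purple points carry the KRAB letters, green points do not, and black lines are medians. Chromosome 7 has a median of 0.13 over 45 members and chromosome 17 a median of 0.01 over 28.

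Of the 11 runs with 5 or more members, 2 held calls in both directions, 6 only higher calls, 1 only lower calls and 2 no call. The share called per run went from 0 to 60%, beside 24.3% of all genes tested and 34.9% of protein-coding genes by the same TPM rule. The runs of 7 on chromosomes 2 and 4 and the chromosome 7 runs that hold Zfp568 and Zfp524 had 1 higher call each. In 3 of them every member was above 0, among them the run of 7 on chromosome 2 that holds Zfp971 (log2 fold changes of 0.00 to 0.76), whose members shared 39.8% (Zfp931) to 97.9% (Zfp965) of their words. On chromosome 7, 6 members were called higher and 2 lower of 45 (17.8%, beside 24.3% of all genes tested). In the run of 15 on chromosome 17, none was called higher and Zfp760 and Zfp213 were called lower, with log2 fold changes over the run of -0.65 to 0.18. In the run of 9 on chromosome 7, Zfp688 was higher (0.45 ± 0.11) and Zfp771, in the same run, lower (-0.55 ± 0.12); they lost the call in 8 and 3 of the 12 fits without 1 library. In the run of 8 on chromosome 17 the adjacent Zfp871 (0.28 ± 0.05, adjusted p = 0.000687) and Zfp799 (0.35 ± 0.08, adjusted p = 0.00546) were higher, Zfp799 losing the call in 4 of the 12 fits, while Zfp763 was at -0.29 ± 0.14. On chromosome 9, Zfp317 (0.53 ± 0.09), Zfp426 (0.50 ± 0.07) and Zfp846 (0.51 ± 0.12) were called higher in a run of 5, in which Zfp560 was at 0.10 ± 0.11 and Zfp266 at -0.08 ± 0.05; this run was picked after its values were seen, and Zfp846 lost the call in 8 of the 12 fits.

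Promoter windows of 300 bases from RefSeq (GRCm38.p6, from 250 bases before the gene start to 50 after it) were matched to 175 members. They are shown for Zfp871 and Zfp799, neighbours that were higher together, for Zfp971, and for Zfp148 as a member that fell; the choice was made after the values were seen. Capitals mark CCAAT on either strand, the letters bound by the NF-Y complex.
Zfp871, chr17:32788238-32788537, minus strand: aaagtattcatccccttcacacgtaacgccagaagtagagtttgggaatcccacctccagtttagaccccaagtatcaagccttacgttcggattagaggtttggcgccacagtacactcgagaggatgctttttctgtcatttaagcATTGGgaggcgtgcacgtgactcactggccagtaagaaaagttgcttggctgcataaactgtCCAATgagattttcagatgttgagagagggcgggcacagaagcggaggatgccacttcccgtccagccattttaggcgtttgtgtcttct
Zfp799, chr17:32830212-32830511, minus strand: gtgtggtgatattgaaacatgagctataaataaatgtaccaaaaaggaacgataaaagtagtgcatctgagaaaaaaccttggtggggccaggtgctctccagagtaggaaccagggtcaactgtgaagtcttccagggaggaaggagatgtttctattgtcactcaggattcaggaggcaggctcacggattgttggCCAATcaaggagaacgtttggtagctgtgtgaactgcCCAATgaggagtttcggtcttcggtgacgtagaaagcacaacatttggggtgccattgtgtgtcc
Zfp971, chr2:178023034-178023333, plus strand: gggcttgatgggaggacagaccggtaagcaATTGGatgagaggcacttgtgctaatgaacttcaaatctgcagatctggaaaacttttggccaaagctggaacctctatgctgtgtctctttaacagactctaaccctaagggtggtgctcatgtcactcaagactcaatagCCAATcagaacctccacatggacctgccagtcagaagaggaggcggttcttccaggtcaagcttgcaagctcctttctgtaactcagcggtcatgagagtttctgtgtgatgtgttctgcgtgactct
Zfp148, chr16:33380525-33380824, plus strand: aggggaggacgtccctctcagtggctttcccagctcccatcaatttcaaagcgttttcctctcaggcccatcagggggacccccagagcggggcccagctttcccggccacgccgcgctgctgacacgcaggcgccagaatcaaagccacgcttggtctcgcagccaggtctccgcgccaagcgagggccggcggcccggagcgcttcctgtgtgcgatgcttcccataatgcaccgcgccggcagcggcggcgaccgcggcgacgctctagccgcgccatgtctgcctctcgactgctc
CCAAT was in 60.8% of windows of members with the KRAB letters and 38.5% of those without, against 39.1% of protein-coding genes by the same TPM rule and 39.2% of all 17492 windows. Among the called members with a window it was in 10 of 21 that were higher and 7 of 14 that were lower.

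The second tested comparison asked how TGF-β altered the members once H1.0 was depleted. In H1.0 siRNA cells, 9 members were called higher and 7 lower with TGF-β than with vehicle. The 16 calls are 7.55% of the members, beside 15.7% of all genes tested (9.14% higher, 6.6% lower) and 22.3% of protein-coding genes by the same TPM rule (13.1% higher, 9.16% lower). The median log2 fold change was -0.02, beside 0.01 for those protein-coding genes; in siScramble cells, described without a test, it was -0.05, beside 0.02. With the replicate block 18 members were called higher and 13 lower, with DESeq2 17 and 13, and in a fit of the 6 libraries compared alone 2 and 1. Without vehicle H1.0 siRNA replicate 1 there were 2 and 3, without its replicate 2 there were 4 and 3, and without TGF-β H1.0 siRNA replicate 3 there were 3 and 3. The lower calls alone were 4 without vehicle H1.0 siRNA replicate 3 and 3 without TGF-β H1.0 siRNA replicate 1. Only 4 of the 16 kept their call in every fit without 1 library: Zfp704, Zfp219, Zfp568 and Zfp451.

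Zfp451, a SUMO ligase whose human counterpart also acts as a corepressor of SMAD signalling, had the smallest adjusted p among the rises. It had 7583, 7168 and 5975 normalized counts in TGF-β H1.0 siRNA cells against 4502, 4052 and 3452 in vehicle H1.0 siRNA cells (0.79 ± 0.11, adjusted p = 0.000347). In siScramble cells, described without a test, it had 5363, 5190 and 5114 with TGF-β against 3979, 3765 and 3598 with vehicle (0.47 ± 0.11). All 3 libraries under TGF-β stood above those under vehicle in both backgrounds.

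Zfp568, which silences a placental transcript of Igf2, had 829.4, 944.9 and 1077 normalized counts in TGF-β H1.0 siRNA cells against 460.8, 484.2 and 590.9 in vehicle H1.0 siRNA cells (0.89 ± 0.13, adjusted p = 0.000621). Zfp462, a protein of 33 C2H2 motifs that acts in heterochromatin of embryonic stem cells, had 981.5, 1255 and 1615 against 548.5, 718.6 and 689.9 in the same groups (0.98 ± 0.17, adjusted p = 0.00164, and 0.0103 without vehicle H1.0 siRNA replicate 1). Zfp827 was at 1.15 ± 0.28 in this comparison (adjusted p = 0.0104, and 0.000656 with the block). Zfp568 and Zfp462 were at lower levels with siRNA than with siScramble under TGF-β, and with the replicate block these differences were called: Zfp568 at -0.49 ± 0.13 (adjusted p = 0.0108 without the block, 0.00205 with it) and Zfp462 at -0.56 ± 0.17 (0.0209 and 0.00136).

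Zfp704 had the widest called fall with TGF-β, at 1155, 1196 and 1206 normalized counts in TGF-β H1.0 siRNA cells against 2036, 2278 and 1966 in vehicle H1.0 siRNA cells (-0.82 ± 0.12, adjusted p = 0.000609). H1.0 siRNA left it at 0.03 ± 0.12 under TGF-β (adjusted p = 0.887). Zfp219 had 654.1, 668 and 530.5 against 898.1, 852.3 and 953.2 in the TGF-β and vehicle H1.0 siRNA cells (-0.55 ± 0.09, adjusted p = 0.00121). Zfp217, whose human counterpart belongs to a corepressor complex with LSD1 and CoREST, had 748.7, 846.2 and 856.7 against 1127, 1010 and 1143 (-0.42 ± 0.08, adjusted p = 0.00205), and 0.0117 without vehicle H1.0 siRNA replicate 1. The other lower calls were Zfp763 (-0.66 ± 0.14), Zfp608 (-0.47 ± 0.11), Zfp316 (-0.45 ± 0.09) and Zfp414 (-0.35 ± 0.07), lost in 4, 10, 5 and 5 of the 12 fits without 1 library in that order. Zfp414 shared 27.9% of its words with other transcripts.

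Among the 9 higher calls, Zfp131 (0.45 ± 0.09, adjusted p = 0.00296), Zfp948 (0.51 ± 0.12), Zfp330 (0.45 ± 0.09), Zfp930 (0.42 ± 0.10) and Zfp597 (0.36 ± 0.08) were lost in 3 to 10 of the 12 fits without 1 library, as was Zfp142 (0.32 ± 0.06), named after its values were seen. Zfp131, Zfp142, Zfp608, Zfp316 and Zfp930 were called in both comparisons. Zfp131, Zfp142 and Zfp316 had opposite signs in them: Zfp131 fell by 0.38 with siRNA under TGF-β, Zfp142 fell by 0.26, and Zfp316 was higher by 0.68. These comparisons share the TGF-β H1.0 siRNA libraries. The siRNA call of Zfp142 was lost in 9 of the 12 fits without 1 library. No share of all genes called in both comparisons is given beside these 5 members. With the block Zfp948 was also called lower with siRNA under TGF-β (-0.38 ± 0.12, adjusted p = 0.00505) and Zfp266 higher with TGF-β (0.20 ± 0.05, adjusted p = 0.00691).

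**Figure D5:**
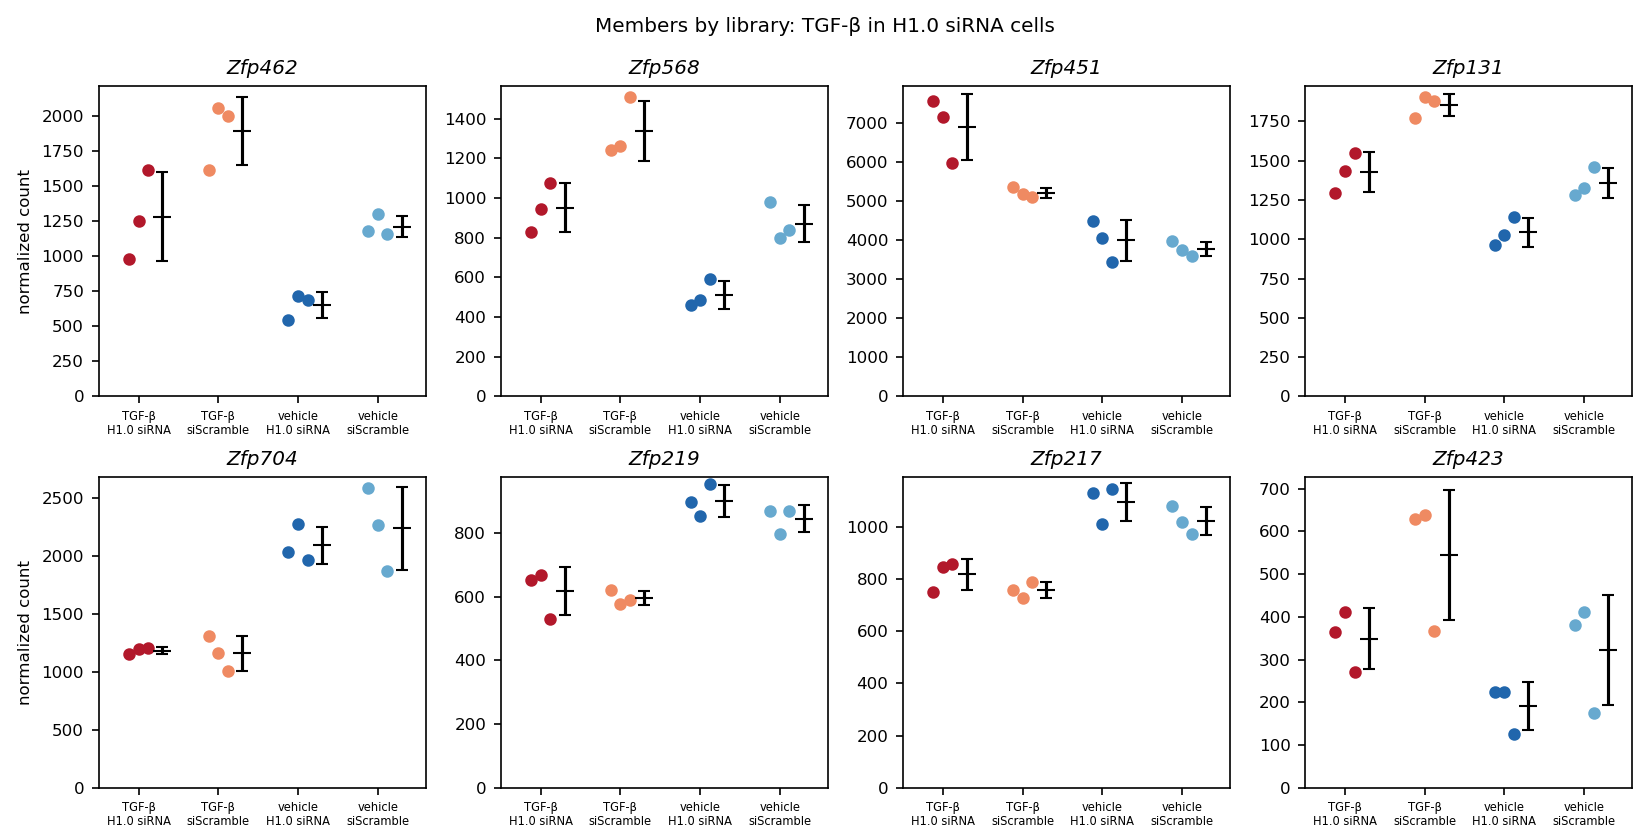
Normalized counts (y axis, from 0) of 8 members by library in the 4 groups, with the mean and SD over 3 libraries in black. Zfp462, Zfp568, Zfp451 and Zfp131 are higher, and Zfp704, Zfp219 and Zfp217 lower, in TGF-β than in vehicle H1.0 siRNA cells; Zfp423 is spread widely between its libraries, at 349 ± 70.8 against 192.1 ± 56.8.

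Of 5 members listed as regulators of SMAD, BMP, adipogenic or osteogenic programmes, 1 was called with TGF-β in siRNA cells (Zfp451, above). This is 20%, beside 15.7% of all genes tested and 22.3% of protein-coding genes by the same TPM rule, and 5 members are too few to compare. Zfp423, a BMP and SMAD cofactor that commits precursors to fat, had 363.9, 411.1 and 271.9 normalized counts in TGF-β H1.0 siRNA cells against 224.8, 224.9 and 126.5 in vehicle H1.0 siRNA cells (0.87 ± 0.34, adjusted p = 0.0764), and replicate 3 was the lowest in each of the 4 groups. With the replicate block its adjusted p was 0.000191. Zfp521, which opposes adipogenesis, had 2653, 2817 and 1414 against 4961, 5123 and 3097 (-0.94 ± 0.26, adjusted p = 0.0192, and 9.27e-05 with the block). Zfp467 was at -0.66 ± 0.16 (adjusted p = 0.0104, and 0.00472 with the block), and Zfp516 at 0.02 ± 0.11. In the siRNA comparison none of these 4, nor Zfp451 (0.40 ± 0.11, adjusted p = 0.0106), was called; with the block Zfp451 was at 0.000523 and Zfp423 at 0.00129. In that comparison 24.3% of all genes tested and 34.9% of protein-coding genes by the same TPM rule were called.

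Of 4 members that silence retroelements or imprinted genes, Zfp932 was called higher with siRNA under TGF-β (0.49 ± 0.10, adjusted p = 0.00214, and 0.0116 without TGF-β siScramble replicate 1), at 405, 426.6 and 408.6 normalized counts in H1.0 siRNA cells against 271.6, 310.2 and 299.6 in siScramble cells. It shared 48.3% of its words, most with Gm15446, so its count is uncertain. This 1 siRNA call is 25% of the 4, beside 24.3% of all genes tested and 34.9% of protein-coding genes by the same TPM rule. Zfp809, which binds retroviral primer binding sites, had 1730, 1519 and 2911 against 1095, 1063 and 1933 in the same groups, with replicate 3 the highest of every group (0.59 ± 0.38, adjusted p = 0.263, and 4.74e-05 with the block). Zfp445, which protects imprints, was at 0.27 ± 0.14 (adjusted p = 0.163, and 0.00518 with the block).

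Of 16 members in transcription and chromatin complexes, 1 was called higher (Zfp143) and 5 lower with siRNA under TGF-β (37.5%, beside 34.9% of protein-coding genes by the same TPM rule). Besides Zfp827 and Zfp148 these were Zfp687 (-0.50 ± 0.09, adjusted p = 0.00117), Zfp131 (-0.38 ± 0.09, adjusted p = 0.00496) and Zfp644 (-0.29 ± 0.07, adjusted p = 0.00801). ZNF644, the human counterpart of Zfp644, binds a histone methyltransferase complex. Zfp131 and Zfp644 lost the call in 5 and 9 of the 12 fits without 1 library. Zfp281 was at -0.27 ± 0.13 with siRNA under TGF-β (adjusted p = 0.126, and 0.00185 with the block) and at -0.46 ± 0.13 with TGF-β in siRNA cells (0.0214, and 8.12e-05 with the block). Zfp410, an activator of Chd4, was at 0.19 ± 0.08 (adjusted p = 0.0899). Of 6 members in RNA metabolism, none was called in either comparison; Zfp598, which acts on collided ribosomes, was at 0.18 ± 0.08 and Zfp638 at -0.18 ± 0.05 with siRNA under TGF-β. In these comparisons 24.3% and 15.7% of all genes tested were called, and 6 members are too few to compare. Zfp106 was at 0.31 ± 0.08 with TGF-β in siRNA cells (adjusted p = 0.0153, and 0.00252 with the block). Of 3 members in mitosis and the cell cycle, Zfp367 was lower, and Zfp207, a spindle protein, was at 0.23 ± 0.08 (adjusted p = 0.0333, and 0.00447 with the block). The 1 siRNA call of 3 is 33.3%, beside 24.3% of all genes tested and 34.9% of protein-coding genes by the same TPM rule.

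A list of 32 genes held cofactors of KRAB proteins together with general genes of heterochromatin and DNA methylation. With siRNA under TGF-β, 10 were lower and 2 higher, a median log2 fold change of -0.15. The share called was 37.5%, beside 34.9% of protein-coding genes by the same TPM rule. The lower ones included Uhrf1 (-2.04 ± 0.17) and Dnmt1 (-1.22 ± 0.06), which maintain DNA methylation, Cbx1 (-1.56 ± 0.10), the gene of heterochromatin protein 1 beta, and Suv39h1 (-1.15 ± 0.09), a histone methyltransferase. Setdb1, which TRIM28 recruits, was higher (0.25 ± 0.06), as was the NuRD gene Mta3 (0.40 ± 0.07), and Trim28 was at -0.14 ± 0.06 (adjusted p = 0.0886). With TGF-β in siRNA cells 7 of the 32 were higher, among them Mbd3 (0.53 ± 0.06) and Chd4 (0.35 ± 0.08), and 0 were lower (21.9%, beside 22.3%). The 50 Zbtb, Zscan and Zkscan genes, chosen by the same TPM rule, had 14 higher and 2 lower with siRNA under TGF-β (32%, beside 34.9%). With TGF-β in siRNA cells they had 3 and 3 (12%, beside 22.3%).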

How the data were processed

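RNA of 12 libraries (rRNA depleted, paired reads) was quantified by the authors with Salmon against mouse transcripts (mm10), and the deposited values are estimated counts and TPM per transcript. Values were summed per gene by the GENCODE M21 annotation. Estimated counts were rounded. The test was edgeR 4.0.16 (R 4.3.3), quasi-likelihood, TMM scaling, genes with at least 10 counts over 12 libraries, all 4 groups in 1 fit; calls were made at an adjusted p under 0.01. DESeq2 1.42.0 was an alternative, with other scalings, filters, a transcript-length offset, and fits leaving out each library. Effective lengths, deposited with the counts, entered that offset only. Library totals of 19.9 to 36.3 M reads set the precision, and the study describes the replicates as biological. Same-numbered libraries deviated together in all 18 pairs (r of 0.202 to 0.642). A differently numbered pair, TGF-β siScramble replicate 1 with TGF-β H1.0 siRNA replicate 2, reached r = 0.258. The labels do not say that the numbers pair the samples, and the fit used for the calls was not blocked on them. Over all genes, replicate 3 differed more from replicates 1 and 2 than these did from each other, in all 4 groups. The test was checked on simulated data. Named members were up to 8 called per direction and comparison by fold, the 5 most abundant, those at the threshold, the 3 longest runs and fixed role lists. Members and lists were chosen with earlier results of these data known.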

Additional observations from a re-analysis of the deposited data

How the results depend on the processing

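No named member that was called changed sign in any of 21 alternative fits, but many calls were weaker. Of the 42 calls of named members, 22 were weaker with the transcript-length offset and 20 with the 6 libraries compared alone. Without TGF-β H1.0 siRNA replicate 1 or replicate 3, 17 were weaker each time. All 42 stayed the same with DESeq2 and with the replicate block. For siRNA against siScramble in TGF-β cells, leaving out 1 library gave 15 to 28 members higher, 10 to 22 lower and a median of 0.0872 to 0.113. The offset for transcript length gave 10 higher, 12 lower and a median of 0.0552. The replicate block gave 33 lower, and the 6 libraries compared alone gave 13 lower. The median was 0.0743 with RLE size factors, 0.0740 with DESeq2, 0.0850 after thinning to the lowest total and 0.0793 for members with a TPM of 10 or more. For TGF-β against vehicle in siRNA cells, leaving out 1 library gave 2 to 9 higher, 3 to 8 lower and a median of -0.0421 to 0.0138. Higher and lower calls were 18 and 13 with the replicate block, 17 and 13 with DESeq2, 2 and 1 with the 6 libraries compared alone, and 3 and 4 with the length offset; the median was 0.0120 for members with a TPM of 10 or more. For siRNA in vehicle cells the median was 0.000125 with RLE, 0.00196 with the 6 libraries, -0.0261 with the length offset and -0.00162 with DESeq2, so its sign is not settled. For TGF-β in siScramble cells it was -0.0754 with the length offset. Leaving out 1 library gave 0.01 to 0.03 and -0.05 to -0.04 for these 2 medians. The causes were not tested. Among the named members the replicate block added calls only for those it is given beside and removed none.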
